A study of Mus musculus with 16 samples.

Results

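This account follows 6 receptor genes that guide the movement of monocytes and macrophages, Ccr2, Ccr1, Cx3cr1, Cxcr4, S1pr1 and S1pr5, in cells sorted from the mouse. They were chosen by name and were covered by 8 probes. They are 6 of 30078 named genes or unnamed features on the array, and all 6 were among the 21897 with enough signal to be tested. RNA was measured on 16 single-colour Agilent arrays, 4 for each of 4 populations from untreated C57BL/6 animals. CCR2+ macrophages from the heart were gated as CD45+, MerTK+, CD64+ and negative for Ly6c, with high CCR2 and high MHC class II. MHC-IIHi macrophages shared the first part of that gate but were negative for CCR2 and low for CD11c, and MHC-IIlo macrophages were negative for both CCR2 and CD11c and low for MHC class II. The last population was Ly6cHi monocytes from blood. The labels do not say how many mice were pooled, their age, or whether replicates came from separate animals, so the p-values measure only the spread between these arrays. Blood and heart were each the source of one cell class, so tissue, its handling and cell class cannot be told apart in any comparison with monocytes.

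Chemokine receptors are G protein-coupled receptors that steer leukocytes along gradients of small secreted proteins. CCR2 is the receptor for CCL2 and related chemokines and lets Ly6c-high monocytes leave the bone marrow. CX3CR1 binds fractalkine, and CXCR4 binds CXCL12, which holds cells in the marrow. S1PR1 and S1PR5 bind the lipid sphingosine-1-phosphate, which is plentiful in blood and scarce in tissue. S1PR1 is best known for letting lymphocytes leave lymph nodes and S1PR5 for the exit of natural killer cells and of patrolling Ly6c-low monocytes from the marrow.

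The receptors for sphingosine-1-phosphate ran in opposite directions between monocytes and macrophages. S1pr1 was measured on all 12 heart macrophage arrays and stayed near background in all 4 monocyte arrays. S1pr5 was bright on all 4 monocyte arrays and not well above background on 8 of the 12 macrophage arrays. Ccr2 followed its sort gate. Cx3cr1 was lower in MHC-IIlo macrophages than in monocytes, Cxcr4 passed the test in no comparison, and Ccr1 lay at or near background throughout.

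Each array read a receptor through oligonucleotides of 60 bases. For 4 of the genes, 30 bases of the probe from which the level was read are given here, with a polyadenylation hexamer (AATAAA) in capitals where the stretch holds one.
S1pr1: tgttccttattcccattacaaccacaatgg
S1pr5: aactctcatacaaacaagctaAATAAAtct
Cxcr4: gtaaattgAATAAAgctagccgtgatcctc
Ccr1: ctgtaacaaactaaagtttttctatccaat
The hexamer lay in 4 of the 8 receptor probes, against 12.6% of the 39319 probes of this length on the array. Both overlapping probes of Cx3cr1, described below, are among the 4 and hold the same hexamer, so that site is counted more than once. The G+C content of the receptor probes ran from 21.7% for Ccr1 to 41.7% for Cx3cr1, where the median over the array was 41.7%. Only 0.493% of probes had a G+C content as low as or lower than that of the Ccr1 probe.

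Levels are given as log2 signal relative to the 75th percentile of the same array, so that 0 is the level of that percentile. Levels of different genes are not compared, because each probe has its own response. On an array, between 52.8% and 69.3% of spots were well above background, and the 75th percentile of the signal was 819 to 996 on monocyte arrays and 941 to 1670 on macrophage arrays. Differences are log2 values ± SE from a limma fit to all 16 arrays (n = 4 per group), with p-values adjusted over all 21897 genes and a threshold of 0.05. Against monocytes 21.8% of these genes passed in CCR2+, 21.5% in MHC-IIHi and 21.4% in MHC-IIlo macrophages. Counts of listed genes are to be read beside these shares. Mertk, a macrophage gate marker, was near background on the 4 monocyte arrays, and the other 4 of the 5 gate markers checked were measured in every group. The summed signal of 5 Ly6c-high monocyte markers was 160 to 214 times the 75th percentile in monocytes and 10.8 to 32.5 in macrophages. Against monocytes 5 of these 5 passed as lower in CCR2+ and 4 in MHC-IIHi and in MHC-IIlo macrophages, while F13a1, the fifth, passed as higher in MHC-IIlo macrophages (1.08 ± 0.20, adjusted p = 0.00103).

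**Figure D1:**
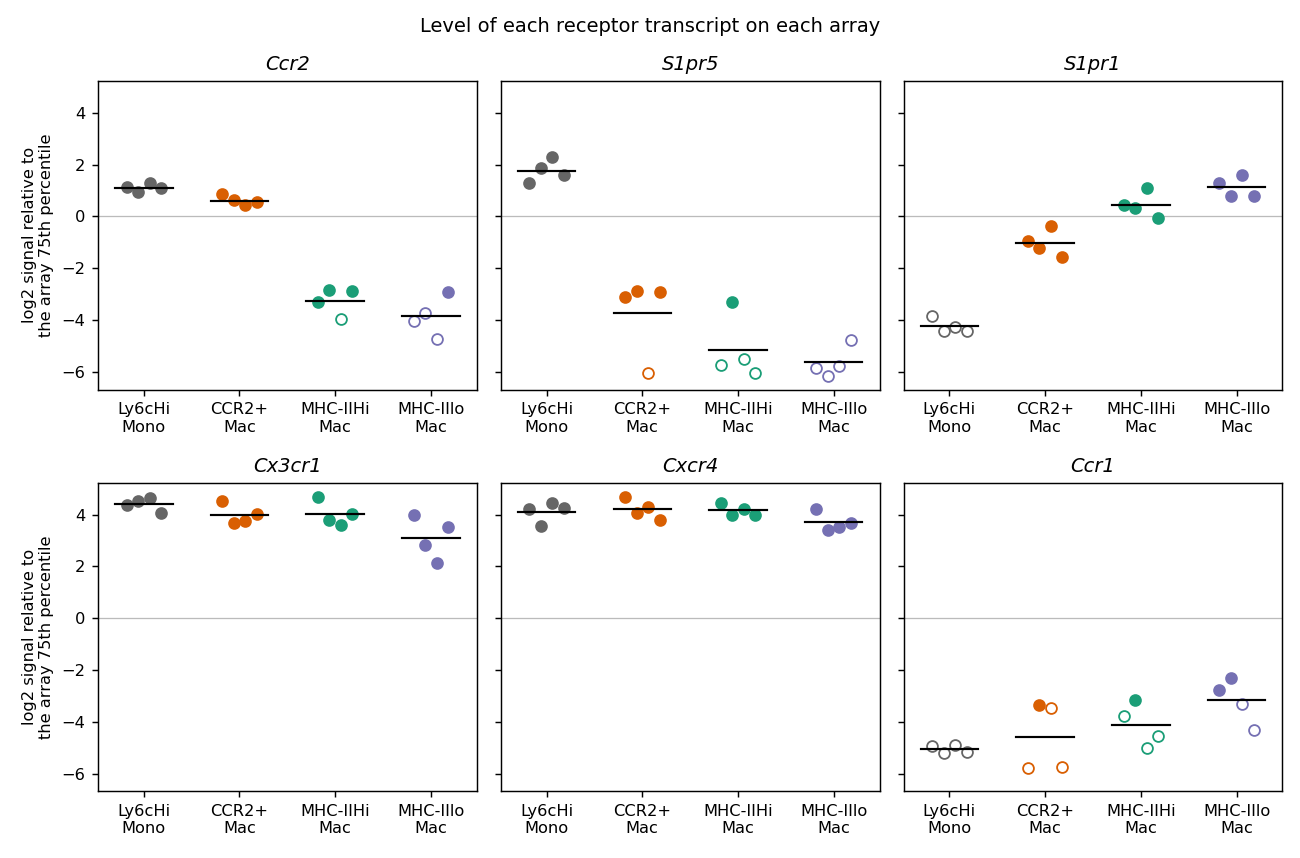
Level of each receptor transcript on each of the 16 arrays, as log2 signal relative to the array's 75th percentile, by sorted group. Points are arrays (open where the spot was not well above background) and bars are means of 4 arrays; S1pr1 and S1pr5 run in opposite directions between monocytes and macrophages.

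Of the chemokine receptors, Ccr2 was the gene of a marker used to gate every heart macrophage population, so its levels check the labels and are no finding. In CCR2+ macrophages the level of Ccr2 was 0.85, 0.63, 0.42 and 0.55 on the 4 arrays. In Ly6cHi monocytes Ccr2 stood at 1.15, 0.94, 1.28 and 1.08. All 8 arrays of these populations were thus within a narrow band near the 75th percentile, and the monocyte arrays all lay above the CCR2+ arrays. In MHC-IIHi macrophages Ccr2 was at -3.30, -2.85, -3.97 and -2.87, with the third array not well above background. In MHC-IIlo macrophages it was at -4.04, -3.72, -4.75 and -2.93, and only the fourth array was well above background. Both CCR2-negative populations were therefore far below the other pair on every array, by 3.86 ± 0.32 and 4.47 ± 0.32 for the CCR2+ macrophages.

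The Ccr2 transcript did not part CCR2+ macrophages from blood monocytes beyond the test. The difference, CCR2+ minus monocyte, was -0.50 ± 0.32 (95% confidence interval -1.19 to 0.19, adjusted p = 0.319 by limma) and was below 0 on 4 of 4 slides. It was similar under other scalings, at -0.56 with median scaling and -0.45 with quantile normalization (adjusted p = 0.260 and 0.320 by limma). The unscaled processed signal overlapped, at 1850 to 2630 units in CCR2+ macrophages and 1820 to 2110 units in monocytes. Unscaled signal cannot test the difference, because the monocyte arrays were dimmer as a whole than the CCR2+ arrays. With a normexp background correction the difference was -0.45 and passed the test (adjusted p = 0.0494). Between the CCR2-negative populations, MHC-IIHi macrophages differed from MHC-IIlo macrophages by 0.61 ± 0.32 (adjusted p = 1.00), and the groups overlapped.

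Cx3cr1 was read by 3 probes. The brightest, which gave the values of the fit, and the next shared 55 of their 60 bases and were offset by 5 bases, and the remaining probe began 1207 bases before the brightest in the transcript. The 5 bases that the other probe lacks are in capitals, at the start of the brightest probe and at the end of its partner.
Cx3cr1, brightest probe, bases 1 to 30: CGTGCctagagtgtgtctatcccacttgta
Cx3cr1, overlapping probe, bases 31 to 60: gtcaataaacattggtttccttccaGCTCT
Because they share most of their sequence, these probes are not separate evidence.

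On the brightest probe Cx3cr1 was at 4.38, 4.53, 4.64 and 4.07 in monocytes. CCR2+ macrophages had 4.51, 3.66, 3.74 and 4.03 and MHC-IIHi macrophages 4.66, 3.77, 3.59 and 4.01. These 3 groups overlapped one another. In MHC-IIlo macrophages Cx3cr1 was lower, at 3.97, 2.82, 2.13 and 3.52, and each of these values lay below every monocyte value. MHC-IIlo macrophages were the lowest group on each of the 4 slides.

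The difference in Cx3cr1 between MHC-IIlo macrophages and monocytes was -1.30 ± 0.35 (adjusted p = 0.0143 by limma), a signal 2.46-fold lower. Its size varied between slides, from -0.41 on slide 1 and -0.55 on slide 4 to -1.71 on slide 2 and -2.52 on slide 3. The overlapping probe gave -1.22 ± 0.32 (adjusted p = 0.0105 over all probes), and the separate probe gave -1.12 ± 0.51 (adjusted p = 0.143), which did not pass. Quantile normalization in place of the 75th percentile also ended the call, with -0.96 and an adjusted p of 0.0746.

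Against the other macrophages, MHC-IIlo macrophages had Cx3cr1 values that were lower on 4 of 4 slides, without passing the adjusted test. CCR2+ minus MHC-IIlo macrophages was 0.87 ± 0.35 (interval 0.12 to 1.63, adjusted p = 0.304). MHC-IIHi minus MHC-IIlo macrophages was 0.90 ± 0.35 (interval 0.15 to 1.65, adjusted p = 1.00). CCR2+ and MHC-IIHi macrophages were close, with a difference of -0.03 ± 0.35 and an interval of -0.78 to 0.72. From monocytes they differed by -0.42 ± 0.35 and -0.40 ± 0.35 (adjusted p = 0.456 and 0.531). In the order of means, monocytes, MHC-IIHi, CCR2+ and MHC-IIlo macrophages, no neighbours differed beyond the test.

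**Figure D2:**
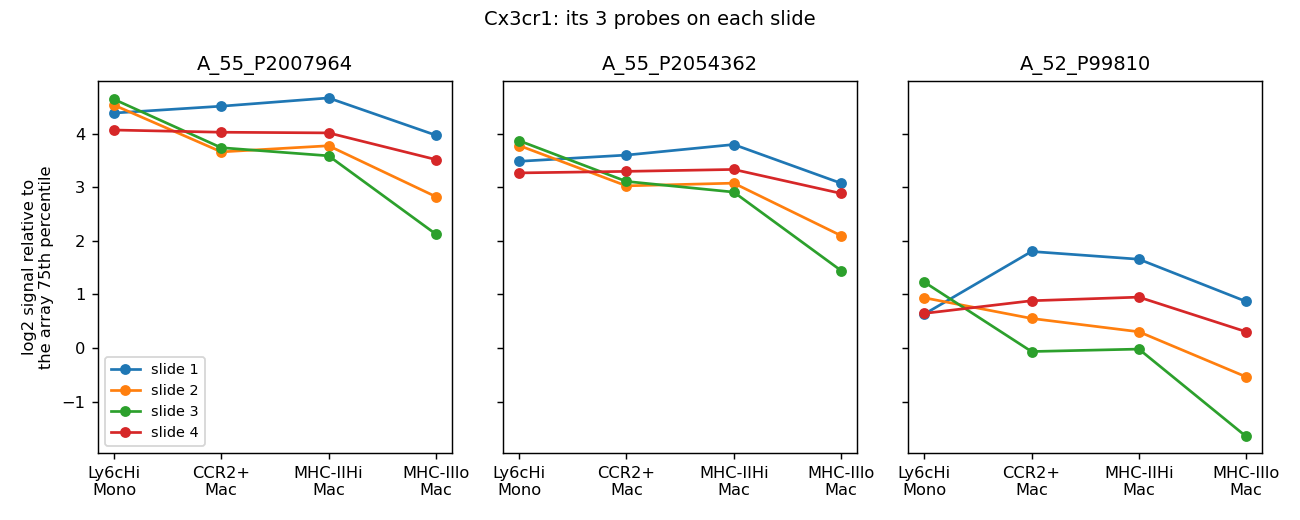
Level of Cx3cr1 on each of its 3 probes, as log2 signal relative to the array's 75th percentile, by sorted group, with 1 line per slide. MHC-IIlo macrophages are the lowest group on every slide for the pair of overlapping probes; for the separate probe on slide 1 the monocyte array is lower (0.63 against 0.87).

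Cxcr4 was the receptor whose level varied least between the groups. It stood at 4.19, 3.54, 4.44 and 4.25 in monocytes and at 4.69, 4.07, 4.28 and 3.77 in CCR2+ macrophages. MHC-IIHi macrophages had 4.45, 3.98, 4.23 and 3.99, and MHC-IIlo macrophages 4.22, 3.40, 3.52 and 3.66. Every group overlapped every other. The largest difference was between CCR2+ and MHC-IIlo macrophages, at 0.50 ± 0.25 (interval -0.04 to 1.04, adjusted p = 0.482 by limma).

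MHC-IIlo macrophages were the lowest group for Cxcr4 as well, with a mean of 3.70 ± 0.36 (SD, n = 4) against 4.11 ± 0.39 in monocytes, 4.16 ± 0.22 in MHC-IIHi and 4.20 ± 0.39 in CCR2+ macrophages. MHC-IIHi minus MHC-IIlo macrophages was 0.46 ± 0.25 (interval -0.08 to 1.00) and was above 0 on 4 of 4 slides. MHC-IIlo macrophages minus monocytes was -0.40 ± 0.25 (interval -0.94 to 0.14). The remaining 3 differences were 0.10 or less in size, each with an interval that reached at least 0.45 on either side of 0, and all 3 changed sign under some alternatives.

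Ccr1, a receptor for CCL3, CCL5 and related inflammatory chemokines, was near the limit of measurement. Its spot was well above background on 1 of 4 CCR2+ arrays (-3.36), 1 of 4 MHC-IIHi arrays (-3.16), 2 of 4 MHC-IIlo arrays (-2.77 and -2.31) and 0 of 4 monocyte arrays. The monocyte levels were -4.96, -5.19, -4.88 and -5.15, and the lowest MHC-IIlo level was -4.31, so these groups did not overlap. The fit called MHC-IIlo macrophages higher than monocytes by 1.87 ± 0.59 (adjusted p = 0.0323 by limma), but with monocytes set to the lowest signal counted as above background no fold above 1 was left.

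The Ccr1 call was lost when any of 7 arrays was left out. Without monocyte array 1, 2, 3 or 4 the adjusted p was 0.0597, 0.0673, 0.0571 or 0.0673, and without MHC-IIlo array 1, 2 or 3 it was 0.0737, 0.102 or 0.0572. It was also lost with a normexp background correction (0.61, adjusted p = 0.352) and with array weights (1.66, adjusted p = 0.105). The other 5 comparisons of Ccr1 did not pass, and in the order of means no neighbouring groups differed beyond the test.

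S1pr1 was higher in all 3 macrophage populations than in monocytes and was lower in CCR2+ than in MHC-IIHi and MHC-IIlo macrophages. In CCR2+ macrophages its level was -0.96, -1.21, -0.37 and -1.57. In MHC-IIHi macrophages it was 0.43, 0.33, 1.12 and -0.05, and in MHC-IIlo macrophages 1.29, 0.78, 1.62 and 0.79. The highest CCR2+ array lay below the lowest array of both CCR2-negative groups, whose own ranges overlapped. On the monocyte arrays S1pr1 read -3.86, -4.42, -4.27 and -4.41, none well above background.

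CCR2+ macrophages had less S1pr1 than MHC-IIlo macrophages, by -2.14 ± 0.30 (4.41-fold, adjusted p = 0.000572 by limma). The difference ran from -1.98 to -2.36 over the 4 slides. Against MHC-IIHi macrophages the difference was -1.48 ± 0.30 (2.79-fold, adjusted p = 0.0210), and from slide to slide it was -1.38, -1.54, -1.48 and -1.52. The size held steady but the call did not. The adjusted p was 0.0871 with median scaling, 0.0521 with normexp and 0.0899 in a fit to these groups alone. It was 0.0559, 0.0755 or 0.0679 without CCR2+ array 1, 2 or 4 and 0.0512 or 0.0760 without MHC-IIHi array 1 or 3, and over the 8 fits with 1 array left out the difference was -1.70 to -1.26. With the slide as a block the adjusted p was 0.00105. MHC-IIHi minus MHC-IIlo macrophages was -0.66 ± 0.30 (interval -1.29 to -0.03) and below 0 on 4 of 4 slides, but did not pass (adjusted p = 1.00).

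Against monocytes S1pr1 could be given only as a bound. It was at least 4.17-fold higher in CCR2+, at least 11.6-fold higher in MHC-IIHi and at least 18.4-fold higher in MHC-IIlo macrophages, with adjusted p-values of 1.53e-06, 1.54e-08 and 3.65e-09 for the differences without the bound. With a normexp background correction the differences were 1.37, 2.66 and 3.28 in the same order. They still passed the test but were smaller folds than these bounds. Here and below, a bound sets each array of the dim group to the lowest signal counted as well above background on it, or to its own signal where higher. Each bound holds only for signal without the normexp correction.

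S1pr1 is also a well-known gene of endothelial cells. Of 9 endothelial markers, 8 were well above background on some array of each macrophage group and 6 on some monocyte array, while Cdh5, which encodes the junction protein VE-cadherin, was above background in no group. The summed endothelial signal was 4.16 to 6.54 times the 75th percentile in CCR2+, 3.29 to 6.18 in MHC-IIHi and 4.00 to 6.02 in MHC-IIlo macrophages, and 3.21 to 4.77 in monocytes, so these sums overlapped. Of the 8 that were tested against monocytes, Vwf, Emcn, Tie1 and Robo4 passed as higher in CCR2+ macrophages and Emcn and Tie1 in MHC-IIHi and in MHC-IIlo macrophages, while Flt1 passed as lower in CCR2+ and in MHC-IIHi macrophages. Among the macrophage groups 0 of 8 passed in any of the 3 comparisons by limma, and 1 had an unadjusted p under 0.05 between CCR2+ and each of the other two. Cardiomyocyte markers moved with the comparison to monocytes too. All 7 that were tested passed as higher in MHC-IIHi and in MHC-IIlo macrophages and 6 of 7 in CCR2+ macrophages, and their summed signal was 14.1 to 26.0 in macrophages against 2.19 to 2.75 in monocytes, with Ryr2 above background in no group. Fibroblast markers moved likewise, with 3 of 5 tested markers higher in each macrophage group and a summed signal of 3.99 to 10.7 against a median of 1.39 in monocytes, and Pdgfra above background in no group. The part of endothelial and other heart cells in the S1pr1 difference from monocytes was not tested, and in bulk samples fewer cells of a type and less RNA per cell cannot be told apart.

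S1pr5 ran the other way. It was bright in monocytes, at 1.29, 1.87, 2.30 and 1.59. In CCR2+ macrophages it was at -3.11, -2.89, -6.05 and -2.92, and the third array was not well above background. MHC-IIHi macrophages had -5.75, -3.30, -5.49 and -6.05, with only the second array above background. In MHC-IIlo macrophages it read -5.84, -6.15, -5.77 and -4.77, none above background. No macrophage array came within 4 log2 units of the lowest monocyte array.

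Relative to monocytes, S1pr5 was lower in CCR2+ macrophages by -5.51 ± 0.68 (adjusted p = 3.23e-05 by limma), and by -4.74 without array 3 (adjusted p = 2.77e-05), the 1 of their 4 arrays that did not measure it. In MHC-IIHi macrophages the fitted difference was -6.91 ± 0.68 (adjusted p = 2.14e-06), and -7.53 without array 2 (adjusted p = 8.58e-07), the 1 of 4 that measured S1pr5. In MHC-IIlo macrophages it was at least 42.5-fold lower (adjusted p = 9.18e-07 without the bound). With normexp that difference was -5.31, a slightly smaller fold than the bound. The fitted values include spots that were not well above background, so their sizes are not ranked against this bound. Among macrophages no difference passed with all arrays. CCR2+ minus MHC-IIHi macrophages was 1.40 ± 0.68 (adjusted p = 0.529). Between CCR2+ and MHC-IIlo macrophages the bound left no fold above 1, and the adjusted p of the difference without it was 0.223, or 0.0172 without CCR2+ array 3, when the difference passed.

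S1pr5 is a marker gene of Ly6c-low monocytes and of natural killer cells, and both lists were examined beside it. All 7 Ly6c-low monocyte markers were well above background on every array. Their summed signal was 81.5 to 132 times the 75th percentile in the Ly6cHi monocytes and 12.8 to 29.4 in macrophages, and 6 of 7 passed as lower in MHC-IIHi and in MHC-IIlo macrophages. In CCR2+ macrophages 5 of 7 passed as lower and 1, Cd300e, as higher (1.12 ± 0.36, adjusted p = 0.0372). Ace, Eno3 and Pglyrp1 were among those lower, by -3.00 ± 0.20, -2.09 ± 0.26 and -4.53 ± 0.51 in CCR2+ macrophages (adjusted p = 5e-08, 3.85e-05 and 1.20e-05). Of 9 natural killer cell markers, 3 (Klrb1c, Klrd1 and Gzmb) were above background in no group, and the summed signal of 5.45 to 8.65 in monocytes lay inside the 4.38 to 11.7 of macrophages. Of the 6 that were tested, 1, Ncr1, passed as lower in CCR2+ macrophages than in monocytes (-1.19 ± 0.37, adjusted p = 0.0289), and 0 passed in MHC-IIHi or MHC-IIlo macrophages by limma, where 0 had an unadjusted p under 0.05. The part of Ly6c-low monocytes or of natural killer cells in the S1pr5 signal was not tested.

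**Figure D3:**
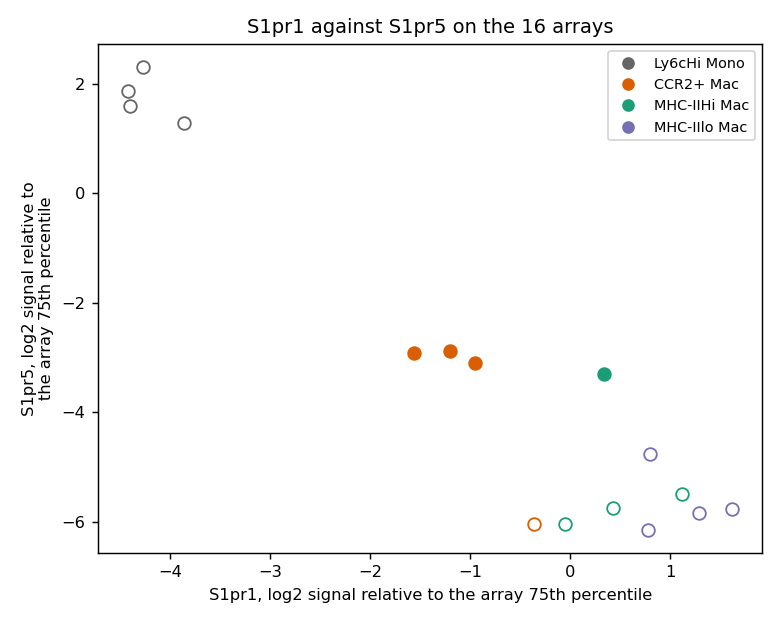
S1pr1 (horizontal) against S1pr5 (vertical) on the 16 arrays, both as log2 signal relative to the array's 75th percentile, coloured by sorted group; points are open where either spot was not well above background. The 4 monocyte arrays lie at the upper left, with S1pr5 between 1.29 and 2.30, and all 12 macrophage arrays lie at the lower right.

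S1pr5, Cx3cr1 and Ccr2 had their highest mean in monocytes, although for Cx3cr1 and Ccr2 the lead over the next group did not pass the test. The 250 bases before the start sites of S1pr5 and Cx3cr1 are shown, from RefSeq promoters of build GRCm38.p6, and the Ccr2 window is not shown. Promoters of 5 of the 6 genes were matched. The motif searched was GGGCGG, the GC box bound by Sp and KLF family factors, on both strands (CCGCCC), and matches are in capitals. It was found 2 times upstream of S1pr5, 3 times upstream of Cxcr4 and 0 times upstream of Cx3cr1, Ccr1 and Ccr2, and at least once in 32.7% of the 32851 promoters over the same length. GAGGAA, a core letter string of PU.1 sites, was searched on both strands too (TTCCTC) and was found 1 time upstream of Ccr1 and in none of the other 4, against 23.3% of promoters. The motifs do not overlap.
S1pr5, chr9:21248444-21248693, minus strand: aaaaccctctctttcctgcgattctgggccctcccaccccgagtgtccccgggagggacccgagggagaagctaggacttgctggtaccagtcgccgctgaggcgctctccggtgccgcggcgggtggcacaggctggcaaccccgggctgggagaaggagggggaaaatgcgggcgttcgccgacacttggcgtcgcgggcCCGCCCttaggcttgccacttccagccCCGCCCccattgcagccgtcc
Cx3cr1, chr9:120068297-120068546, minus strand: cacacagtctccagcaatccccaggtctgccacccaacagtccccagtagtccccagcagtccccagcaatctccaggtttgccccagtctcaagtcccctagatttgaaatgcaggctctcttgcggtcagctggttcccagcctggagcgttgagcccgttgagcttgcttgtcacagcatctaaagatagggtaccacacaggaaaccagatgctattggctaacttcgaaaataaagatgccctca
The G+C content of these windows was 69.2% and 53.6%. A letter match is a description of the sequence and not a binding site.

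Counted together, 2 of the 6 genes passed between CCR2+ and MHC-IIHi macrophages (Ccr2 higher, S1pr1 lower), where 1.26% of all genes did, or 2.5% with the slide as a block. The same 2 passed between CCR2+ and MHC-IIlo macrophages, against 2.82% of all genes, or 5.81% with the block. Ccr2 had to differ in both. No member passed between MHC-IIHi and MHC-IIlo macrophages, where limma called 0.0731% of genes, or 0.352% with the block. In that comparison S1pr1 and Cx3cr1 had an unadjusted p under 0.05, and 0 members passed with the block. Against monocytes, S1pr1 and S1pr5 passed in CCR2+ macrophages (21.8% of all genes, 33.7% with the block). S1pr1, S1pr5 and Ccr2 passed in MHC-IIHi macrophages (21.5%, 31.7% with the block). All but Cxcr4 passed in MHC-IIlo macrophages (21.4%, 32.2% with the block). Among these, Ccr1 rested on dim spots and its call was lost in most fits with an array left out. The block changed no call of a member. Members whose groups did not overlap numbered 2, 2 and 0 in the 3 comparisons among macrophages, in the same order, where 7.79%, 8.29% and 2.35% of all genes did not overlap. Against monocytes they numbered 3, 3 and 5 in CCR2+, MHC-IIHi and MHC-IIlo macrophages, where 25.1%, 22.7% and 23% of all genes did not overlap. For MHC-IIHi and MHC-IIlo macrophages both counts against monocytes include Ccr2. These cells were sorted as negative for CCR2, so that part of the counts is no finding. The count of 3 without overlap in CCR2+ macrophages includes Ccr2 as well. Those cells were sorted for high CCR2, so that part is no finding either. The 3 comparisons with monocytes share the monocyte arrays, so their results are not independent of one another.

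**Figure D4:**
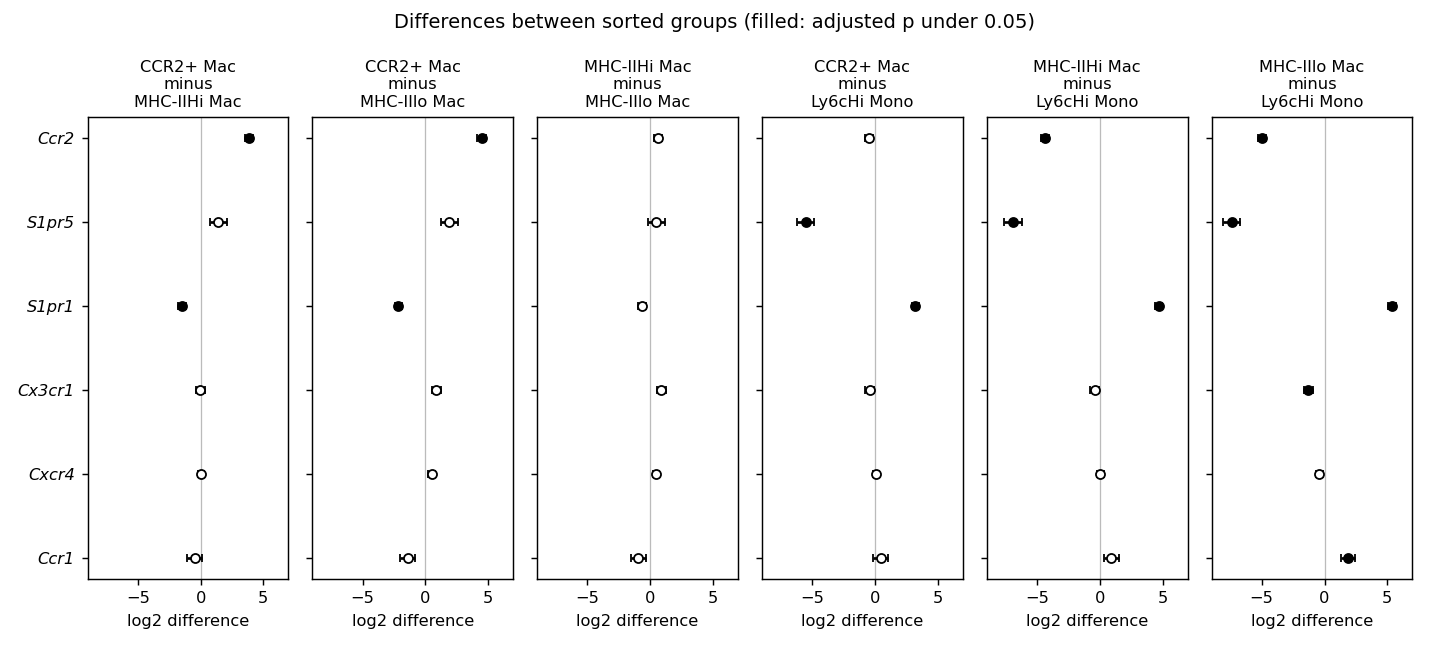
Log2 difference (horizontal, first group minus second) of each receptor in each of the 6 comparisons, with bars of 1 SE from limma and filled points where the adjusted p was under 0.05. Cxcr4 is open in every panel, and S1pr5 and S1pr1 lie on opposite sides of 0 in the 3 comparisons with monocytes; these differences are without the bound for dim spots.

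The levels of the 6 genes were also set against each other and against 17512 other genes with a symbol, over the 16 arrays, as a description. The arrays share 4 groups and 4 slides, so these correlations mostly restate group differences. They also include spots not well above background: S1pr1 on all monocyte arrays, S1pr5 on most macrophage arrays and Ccr1 on most arrays. Ccr2 was likewise dim on most MHC-IIlo arrays and on MHC-IIHi array 3. S1pr1 and S1pr5 had a Pearson r of -0.95, Ccr2 and S1pr1 -0.87, Ccr2 and S1pr5 0.77, and Cx3cr1 and Cxcr4 0.64. The genes most like S1pr1 were Cd163, a scavenger receptor for haemoglobin (r = 0.990), Bin1, which bends membranes (0.990), and Rab11fip5 of recycling endosomes (0.989). The mean level of Cd163 was -1.77 in monocytes, 1.89 in CCR2+, 4.05 in MHC-IIHi and 4.45 in MHC-IIlo macrophages, the same order as for S1pr1.

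Nearest to S1pr5 were Gsr, which encodes glutathione reductase (r = 0.955), Palm (0.948) and Pglyrp1, a peptidoglycan-binding protein (0.944). Ccr2 was most like Ptpn22, a phosphatase of immune receptor signalling (0.965), Ear2, a ribonuclease (0.965), and Cyp4f18 (0.955). For Cxcr4 the nearest were Pip4k2a (0.946), Prpf38b (0.882) and Fbh1 (0.879), and for Cx3cr1 Pex3, Parp11 and Slamf8 (0.878 each). Ccr1 reached at most 0.815, with Gm3893, followed by Dusp23 (0.812) and Nlgn2 (0.761).

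The ligands of these receptors were the pathway genes with the widest differences from monocytes. Of 11 ligand genes, 9 were higher and 1 lower in CCR2+ macrophages, 8 higher and 0 lower in MHC-IIHi and 7 higher and 0 lower in MHC-IIlo macrophages, with median differences of 1.98, 1.43 and 1.17 where the medians over all genes were -0.10, -0.05 and -0.06. With the slide as a block, 2 ligands, Ccl6 and Ccl9, passed as lower in CCR2+ and in MHC-IIHi macrophages. The share of all genes called against monocytes was 21.8%, 21.5% and 21.4%, or 33.7%, 31.7% and 32.2% with the block. Ccl12, a ligand of CCR2, was not above background on any monocyte array and was at least 41.0-, 55.5- and 61.4-fold higher in CCR2+, MHC-IIHi and MHC-IIlo macrophages (adjusted p = 5.29e-10, 1.52e-10 and 1.11e-10). Ccl4, an inflammatory chemokine gene, was higher in CCR2+ macrophages, and Ccl8, also on this list, in MHC-IIHi and MHC-IIlo macrophages (adjusted p = 1.68e-07, 1.05e-06 and 3.04e-07). Each was measured on 1 of 4 monocyte arrays, so no size is given. Ccl6 was lower in CCR2+ macrophages by -1.02 ± 0.23 (adjusted p = 0.00425).

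Among macrophages the ligands differed less. Between CCR2+ and MHC-IIlo macrophages Ccl5 was higher by 1.09 ± 0.24 (adjusted p = 0.0187) and Ccl8 lower by -2.67 ± 0.62 (adjusted p = 0.0295). With the block Ccl6 and Ccl7 were called lower there too. By limma 0 of 11 passed between CCR2+ and MHC-IIHi macrophages, where 2 had an unadjusted p under 0.05, and 0 between MHC-IIHi and MHC-IIlo macrophages, where 0 did, and with the block both counts were again 0.

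Of 21 other chemokine receptors, 15 had enough signal to be tested. Among those higher than in monocytes were Cmklr1, the chemerin receptor, and Ccrl2, a chemerin-binding receptor, in all 3 macrophage populations, and Cxcr3 in MHC-IIlo macrophages (1.45 ± 0.49, adjusted p = 0.0470), and 0 were lower. Cmklr1 was higher by 2.61 ± 0.25, 3.06 ± 0.25 and 3.24 ± 0.25 and Ccrl2 by 2.70 ± 0.31, 1.55 ± 0.31 and 1.05 ± 0.31 in CCR2+, MHC-IIHi and MHC-IIlo macrophages (adjusted p at most 0.0252). With the block, Ccr6 and Ackr4 were lower in CCR2+, Ackr4 in MHC-IIHi, and Ccr7 and Ackr4 in MHC-IIlo macrophages. Ccrl2 was the only one to pass between macrophages, higher in CCR2+ than in MHC-IIlo by 1.65 ± 0.31 (adjusted p = 0.00767). The medians of the 15 against monocytes were 0.42, 0.25 and 0.31 in CCR2+, MHC-IIHi and MHC-IIlo macrophages. Limma called 21.8%, 21.5% and 21.4% of all genes in these comparisons, and the share called in this list was close to that.

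Of 12 other genes of sphingosine-1-phosphate reception and handling, 10 were tested. In CCR2+ and in MHC-IIHi macrophages 1 was higher and 1 lower than in monocytes, and in MHC-IIlo macrophages 2 were higher and 1 lower, and their median differences from monocytes were -0.12, 0.03 and 0.01 in CCR2+, MHC-IIHi and MHC-IIlo macrophages. The share of all genes called was 21.8%, 21.5% and 21.4%, so counts this small are no result about the list. S1pr4, a receptor of blood cells, was lower in macrophages by -2.01 ± 0.33, -2.52 ± 0.33 and -1.37 ± 0.33 (adjusted p = 0.000367, 3.41e-05 and 0.00593). Plpp1, a membrane phosphatase that acts on lipid phosphates, was higher by 1.74 ± 0.26, 1.63 ± 0.26 and 1.90 ± 0.26 (adjusted p = 0.000182, 0.000278 and 6.18e-05). Sgpp1, a phosphatase of sphingosine-1-phosphate, was higher in MHC-IIlo macrophages by 0.80 ± 0.27 (adjusted p = 0.0482). Among macrophages 0 of 10 passed in any of the 3 comparisons by limma, with or without the block, and 1 had an unadjusted p under 0.05, between MHC-IIHi and MHC-IIlo macrophages.

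Of 18 genes of receptor signalling and desensitization, 3 were higher in each macrophage population than in monocytes, and 6, 7 and 6 were lower in CCR2+, MHC-IIHi and MHC-IIlo macrophages. With the block 10, 10 and 8 were lower. The median differences were -0.47, -0.49 and -0.62. Over all genes 21.8%, 21.5% and 21.4% were called, or 33.7%, 31.7% and 32.2% with the block. Rgs1, which shuts off G proteins behind chemokine receptors, was below background on all monocyte arrays and was at least 22.2-, 11.4- and 4.60-fold higher in CCR2+, MHC-IIHi and MHC-IIlo macrophages (adjusted p = 6.62e-09, 2.34e-08 and 3.76e-07). Arrb2, which encodes a beta-arrestin, was higher by 1.63 ± 0.16, 1.78 ± 0.16 and 1.62 ± 0.16, and Rgs10 by 0.68 ± 0.21, 0.95 ± 0.21 and 0.99 ± 0.21 (adjusted p at most 0.0282).

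Among the genes that were lower, the receptor kinase gene Grk5 differed most, by -1.61 ± 0.23 in CCR2+ macrophages (adjusted p = 0.000105) and by at least 3.65-fold in MHC-IIlo macrophages (adjusted p = 9.19e-06). In MHC-IIHi macrophages, where 1 of 4 arrays measured it, Grk5 was lower as well (adjusted p = 8.90e-06). It was followed by Rgs14, at -1.05 ± 0.30, -1.37 ± 0.30 and -1.54 ± 0.30 (adjusted p at most 0.0193). Rgs1 was higher in CCR2+ than in MHC-IIlo macrophages by 2.27 ± 0.37 (adjusted p = 0.00244), the only call of this list among macrophages by limma. With the block it was called in all 3 comparisons among macrophages, and Grk3 (higher) and Klf2 (lower) were called as well between CCR2+ and MHC-IIlo macrophages.

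Genes of adhesion and rolling were mostly lower in macrophages than in monocytes. Of 11, 7 were lower in CCR2+ and 6 in MHC-IIHi and in MHC-IIlo macrophages, and 1, Pecam1, was higher in CCR2+ macrophages (1.38 ± 0.38, adjusted p = 0.0160). With the block 8, 7 and 8 were lower, and Itgb1 was called higher in CCR2+ and in MHC-IIHi macrophages. The medians were -0.87, -1.07 and -0.93. Over all genes 21.8%, 21.5% and 21.4% were called, or 33.7%, 31.7% and 32.2% with the block. Itgal, the alpha chain of the integrin LFA-1, was lower by -3.11 ± 0.27, -3.92 ± 0.27 and -4.29 ± 0.27 (adjusted p at most 7.83e-07). Spn is in this list and among the Ly6c-low monocyte markers.

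CCR2+ macrophages had more of the integrin gene Itgb7 than MHC-IIHi and MHC-IIlo macrophages, by 0.99 ± 0.18 and 1.00 ± 0.18 (adjusted p = 0.00993 and 0.00458). Itgal was higher in CCR2+ than in MHC-IIlo macrophages by 1.18 ± 0.27 (adjusted p = 0.0256). With the block, 2 genes in place of 1 passed against MHC-IIHi macrophages, with Itga4 added, and 4 in place of 2 against MHC-IIlo macrophages, with Itga4 and Spn added. Between MHC-IIHi and MHC-IIlo macrophages 0 of 11 passed with or without the block, and 0 had an unadjusted p under 0.05.

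**Figure D5:**
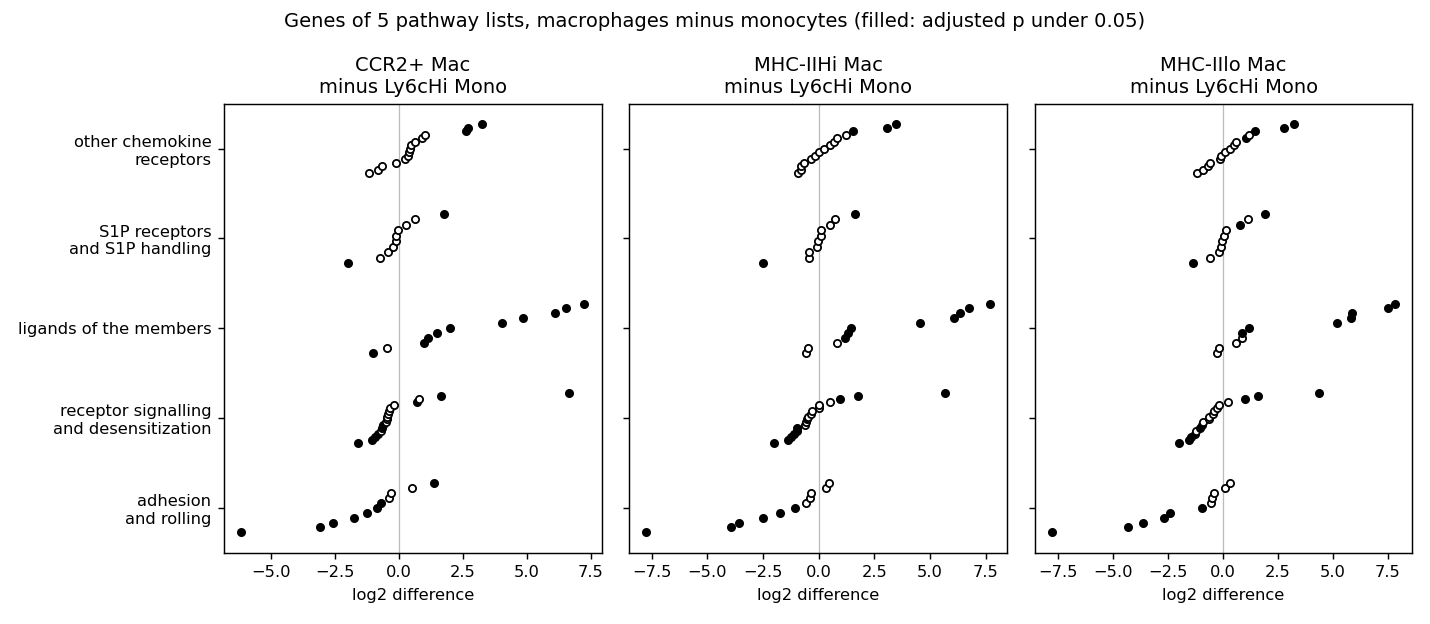
Log2 differences (horizontal, macrophage group minus Ly6cHi monocytes) of the genes of 5 pathway lists that had enough signal to be tested, 1 point per gene, filled where the adjusted p was under 0.05 by limma. Ligand genes spread furthest to the right and adhesion genes furthest to the left in each panel.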

How the data were processed

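The scanner files hold processed signal intensity that, per the file headers, was background-subtracted and detrended within each array, and the submitters' processing notes name Agilent Feature Extraction 11.5.1.1 and Partek. A deposited table of log2 values was not used, because 0 of its 16 columns matched the array of the same label (r at least 0.995 with another array, which belonged to another group for 12 columns); under its labels Ccr2 ran from 6.18 to 11.47 within CCR2+ macrophages. Scanner labels were used throughout. Text headings were shifted in 15 files, so columns were found by content. Outlier spots were dropped, spots of a probe averaged, log2 signal centred on each array's 75th percentile, and probes kept that were well above background on at least 4 of 16 arrays (27643). The brightest kept probe stood for a gene. The fit used limma 3.58.1 under R 4.3.3, with 1 mean per group (12 residual degrees of freedom, Benjamini-Hochberg within a comparison), which was tested on simulated data.

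Replicate numbers coincide with the 4 slides, each holding 1 array per group at a fixed position, so that a group cannot be told apart from its position. Deviations from group means correlated between same-numbered arrays in 24 of 24 pairs (r 0.14 to 0.64). Some differently numbered arrays correlated more closely. CCR2+ array 4 had r 0.49 with MHC-IIlo array 2 and 0.47 with MHC-IIlo array 4. CCR2+ array 1 had r 0.33 with monocyte array 3 and 0.24 with monocyte array 1. In all, 13 arrays matched best with their own number and the rest did not. The correlations were thus only partly specific to the number, and a fit with the slide as a block was an alternative. The 6 genes and all lists were chosen with earlier results of these data known. All 6 are described; other genes are named from each list, per comparison, as at most 2 with the largest difference each way that passed, plus those of counts of 5 or fewer; for each of the 6, the 3 genes of highest r are named. The genes named as added with the block were named after their values were seen. Some items that these rules would name are not reported here. Alternatives are given at the end.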

Additional observations from a re-analysis of the deposited data

Results flagged for a closer look

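One level of S1pr5 stood apart from its group. On CCR2+ macrophage array 3 it was -6.05, not well above background, while the other 3 arrays of the group lay between -3.11 and -2.89. Of 24 sets of 4 arrays examined in this way, this was the only one with such a gap, and chance gives about 1 in 20. Its Ccr2 and S1pr1 levels, 0.42 and -0.37, were the lowest and the highest of that group.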

How the results depend on the processing

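The 6 genes were tested in 6 comparisons under 9 other settings and with each array left out. Of these repeats 567 kept direction and side of the threshold, 18 lost the call, 2 gained one and 19 turned direction, none of the 19 called in either form. The count of genes called between CCR2+ and MHC-IIHi macrophages fell from 2 to 1 (S1pr1 lost) with median scaling, with normexp and when fitted to these groups alone, and was 1 to 2 with 1 array left out. Between MHC-IIlo macrophages and monocytes it fell from 5 to 4 with quantile normalization (Cx3cr1 lost). It was also 4 with normexp, array weights and a filter of 8 arrays (Ccr1 lost), and 4 to 5 with 1 array left out. With the replicate number as a block the counts were 2, 2, 0, 2, 3 and 5 in the order of the comparisons given, as without it. Median scaling shifted all differences from monocytes by -0.05 in CCR2+, -0.11 in MHC-IIHi and -0.08 in MHC-IIlo macrophages. Cx3cr1, CCR2+ minus MHC-IIHi, was 0.033 with median scaling, 0.043 with quantile normalization, 0.0076 with the mean of all probes and -0.20 to 0.19 with 1 array left out. Cx3cr1, CCR2+ minus monocytes, was 0.034 with quantile normalization, and Ccr1 in that comparison -0.10 with normexp. Cxcr4, CCR2+ minus monocytes, was -0.045 with array weights and -0.094 to 0.24 with 1 array left out. Cxcr4, MHC-IIHi minus monocytes, was -0.057 with median scaling, -0.052 with array weights and -0.13 to 0.17 with 1 array left out. Cxcr4, CCR2+ minus MHC-IIHi, was -0.12 to 0.18 and S1pr5, MHC-IIHi minus MHC-IIlo, -0.13 to 0.79 with 1 array left out. The cause was not tested. Ccr1 did not pass a filter of 8 arrays. Dim spots limit Ccr1 in every group, S1pr5 in macrophages, S1pr1 in monocytes and Ccr2 in MHC-IIHi and MHC-IIlo macrophages.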
